A study of Drosophila melanogaster with 9 samples.

Results

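The vacuolar ATPase (V-ATPase) subunit genes were taken as every gene of the deposited expression matrix whose symbol starts with Vha, which gave 33 of 15334 genes. Of these, 20 averaged 10 normalized counts or more across all 9 libraries and count as well measured. The other 13 averaged less and were silent or low. The RNA of Drosophila melanogaster embryos, the fruit fly, was sequenced in 3 groups of 3 libraries. In the obe2/Df group the mothers carried the obe2 allele of obelus (obe) over Df, the usual fly symbol for a chromosomal deficiency. In the obe1/obe2 group the mothers carried 2 obe alleles, obe1 and obe2. In both groups these mothers were mated to fathers with 1 obe2 and 1 wild-type chromosome, so embryos of 1 library could differ in the paternal allele, and the labels do not say that they were sorted by it. OreR embryos came from the wild-type strain Oregon-R. Embryos were aged 3 h at 25 °C, and about 50 were picked by hand for each library between late stage 5 and early stage 6, around the end of cellularization and the onset of gastrulation, and total RNA was sequenced. The labels name neither the lesions of the alleles nor the deficiency. Replicates are separate RNA isolations, and no separate crosses are named, so p-values measure the spread between these isolations, which may be technical.

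The V-ATPase is a rotary proton pump of lysosomes, endosomes, the Golgi and some plasma membranes. Its cytosolic V1 part, with subunits A to H, burns ATP in a head of alternating A and B subunits and turns a shaft of D and F. Subunits E and G form the outer stalks, and C and H join the stalks to the membrane part and take part in its regulated assembly. The membrane V0 part, with subunits a, c, c″, d and e, carries protons across the membrane on the c ring and through subunit a, whose isoforms help set where in the cell the pump sits. In flies several subunits have extra gene copies, some of which are known mainly from testis. Pump activity acidifies endosomes and lysosomes, and in fly tissues it bears on the trafficking and signalling of Notch and Wingless.

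Recovered reads ranged from 61007517 to 123121486 per library. As a check of the labels, obe RNA (CG5205) stood at 277, 245 and 183 normalized counts in obe2/Df, 821, 672 and 698 in obe1/obe2 and 5850.1, 8562 and 6755 in OreR. A normalized count is a gene's read count divided by the library's size factor. The obe2/Df libraries stood apart in stage markers. The summed level of 20 genes that the embryo itself switches on early was 44659.9 to 61693 normalized counts in obe2/Df, 152607 to 320945 in obe1/obe2 and 237013 to 346222 in OreR, so the obe2/Df range lay below both others. All 20 of these genes were lower in obe2/Df than in OreR in the fit described below, with a median log2 fold change of -4.80. Against obe1/obe2, 19 of the 20 were lower in obe2/Df, with a median of -4.23. In obe1/obe2 against OreR 0 of the 20 were called by limma or by edgeR, with 0 at an unadjusted p under 0.05. Their median there was -0.48. The sums of obe1/obe2 replicate 1 (152607) and replicate 3 (158312) lay below every OreR library, and that of replicate 2 (320945) lay within the OreR range. The summed level of 14 maternal RNAs known to be cleared was 1202784 to 1365243 in obe2/Df, 932949 to 1167207 in obe1/obe2 and 915017 to 1062642 in OreR. Of these 14, 8 were higher and 3 lower in obe2/Df than in OreR, and 2 higher and 3 lower in obe1/obe2 than in OreR. In the same fit, 31% of all tested genes were higher and 29.5% lower in obe2/Df than in OreR. For obe1/obe2 against OreR these shares were 11% and 11.7%. The part that the difference in stage markers plays in any V-ATPase value was not tested. In whole embryos, fewer cells of a type and less RNA per cell cannot be told apart.

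Every one of the 13 subunit types of the pump had a well-measured gene at this stage. Of the 13 V1 genes 9 were well measured, of the 18 V0 genes 9, and both accessory genes. Between genes, levels were compared as normalized counts per kilobase of exon, from annotated exon lengths. In OreR the highest was Vha16-1, the gene of the main proton-carrying ring subunit c, at 34341 ± 682 per kilobase (SD, n = 3). It was followed by the stalk subunit E gene Vha26 at 19640.4 ± 1179 per kilobase. A broad middle group lay close together: Vha55 (subunit B of the head) at 12548 ± 747, VhaAC39-1 (subunit d, which couples shaft and ring) at 12498 ± 712, Vha13 (subunit G) at 12447 ± 981, Vha14-1 (subunit F) at 12173 ± 922, VhaPPA1-1 (ring subunit c″) at 11256 ± 631 and Vha68-2 (the catalytic subunit A) at 11080.2 ± 1049 per kilobase. Among these 6, neighbours in the order differed by less than 1 SD of the higher gene. Vha36-1 (subunit D), VhaM8.9 and VhaAC45 (both accessory), VhaM9.7-b (the small subunit e), VhaSFD (subunit H) and Vha100-1 (subunit a) ranged from 9514 down to 5786 per kilobase. VhaM9.7-c, Vha44 (subunit C) and Vha100-2 (a second subunit a gene) were at 4994 ± 664, 4118 ± 77.3 and 2583 ± 257 per kilobase. The remaining well-measured genes were far lower, with Vha68-1 at 132 ± 23.4, VhaM9.7-a at 56 ± 19.6 and Vha16-5 at 8.84 ± 6.66 per kilobase.

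**Figure D1:**
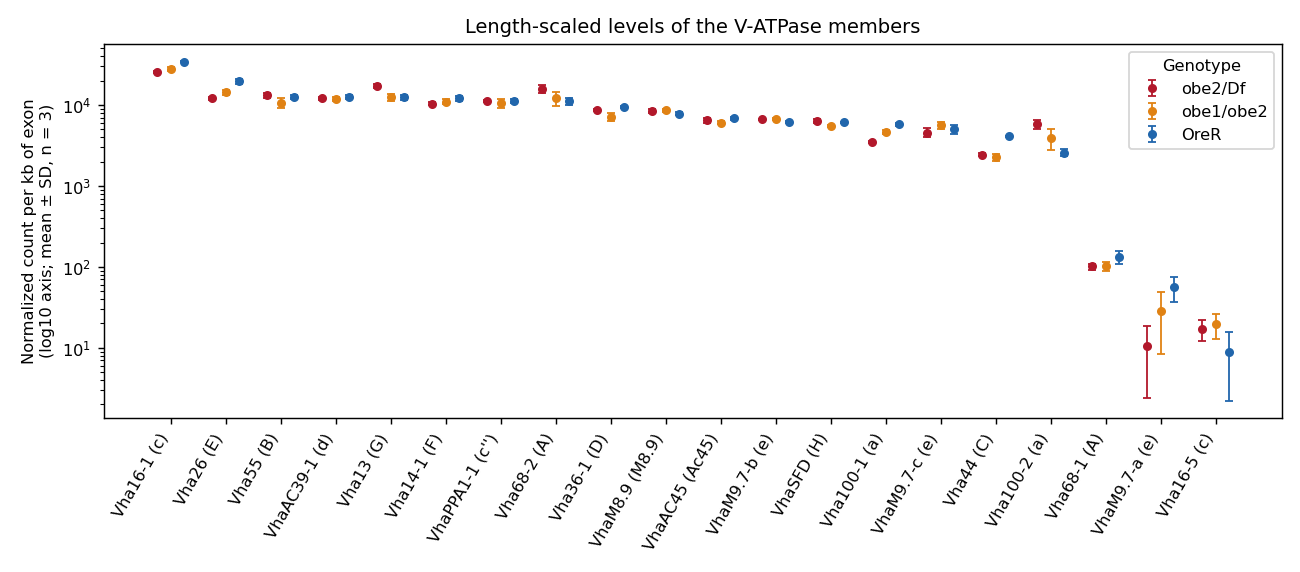
Normalized counts per kilobase of exon (log10 axis) for the 20 well-measured V-ATPase genes, ordered by their OreR level, with the subunit letter in brackets; points are means and bars SD of 3 libraries for obe2/Df, obe1/obe2 and OreR. Vha16-1 is highest in every genotype, and Vha68-1, VhaM9.7-a and Vha16-5 lie more than a decade below the other genes.

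Differences between genotypes were tested with limma on log2(normalized count + 1), in 1 fit of the 8346 genes whose mean reached 10, and are given as log2 fold change ± SE. A gene is called higher or lower at a Benjamini-Hochberg adjusted p under 0.05 over those 8346 genes. Among the 20 members, obe2/Df had 3 higher and 6 lower than OreR (45%), where 60.5% of all tested genes were called. In obe1/obe2, 0 were higher and 5 lower than OreR (25%), where 22.6% of all genes were called; edgeR on the recovered reads gave the same counts, and 1 member was higher and 7 lower at an unadjusted p under 0.05. Between obe2/Df and obe1/obe2, 5 members were higher and 2 lower in obe2/Df (35%), where 44.7% of all genes were called, 25.2% higher and 19.5% lower. The share of members called was thus close to that of all genes in obe1/obe2, and below it in both comparisons of obe2/Df, so these shares are no result about the family. The members' median log2 fold change was -0.068 in obe2/Df and -0.14 in obe1/obe2 against OreR, beside medians of -0.0083 and -0.069 over all genes. The members' median absolute log2 fold change was 0.30 in obe2/Df and 0.21 in obe1/obe2, beside 0.50 and 0.28 over all genes. Both comparisons share the OreR libraries. By direction, 31% of all tested genes were higher and 29.5% lower in obe2/Df, and 11% were higher and 11.7% lower in obe1/obe2. The authors' deposited tables, made with DESeq, called 1 of the 20 members, VhaM9.7-a in obe2/Df.

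**Figure D2:**
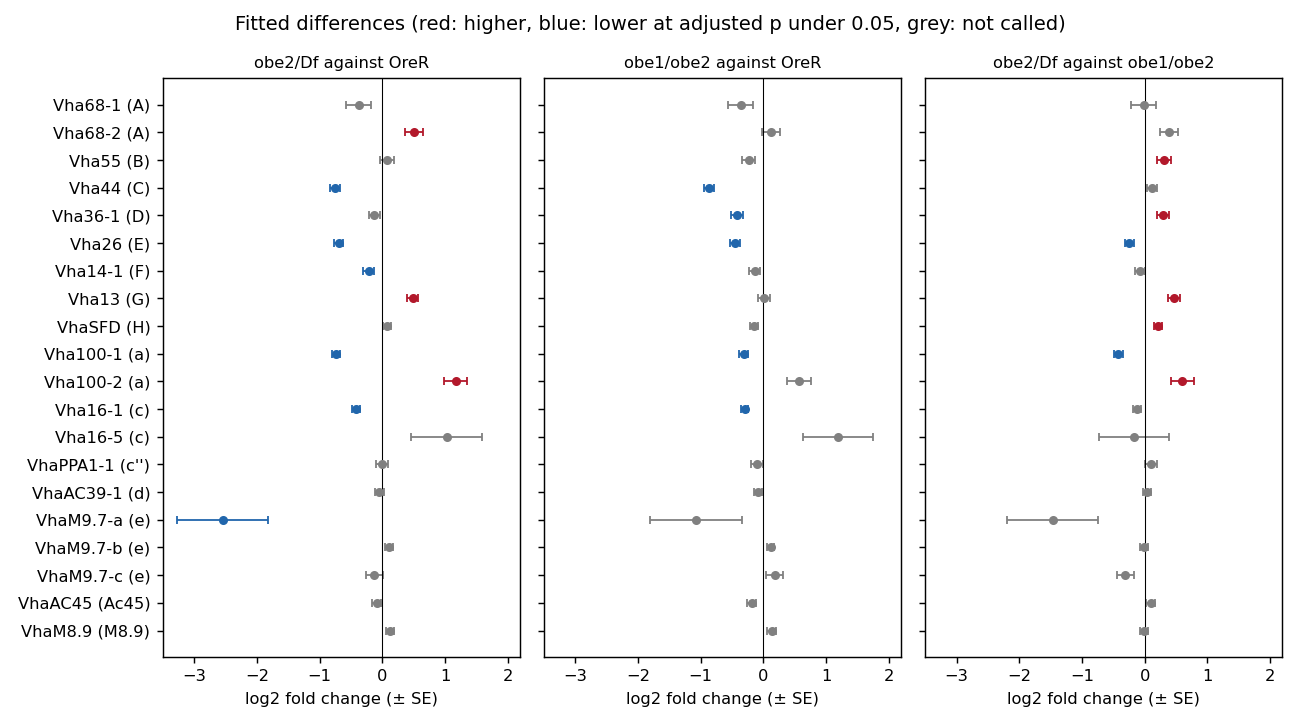
Fitted log2 fold change (points) ± SE (bars) of the 20 well-measured V-ATPase genes in 3 comparisons, with subunit letters in brackets; red is higher, blue lower and grey not called. Called differences lie on both sides of 0 in obe2/Df and below 0 in obe1/obe2.

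In the V1 part, Vha44 and Vha26 fell in both obe groups, and Vha13 and Vha68-2 rose in obe2/Df. Vha44 encodes subunit C, which leaves the pump when V1 and V0 separate. It stood at 10299, 9389 and 9669 normalized counts in obe2/Df, 9721, 8114 and 9349.7 in obe1/obe2 and 16919, 16324 and 16463 in OreR. Both obe groups lay below OreR without overlap, and they overlapped each other. Vha44 fell in obe2/Df (-0.76 ± 0.079, adjusted p = 0.000175) and also in obe1/obe2 (-0.87 ± 0.079, adjusted p = 0.000129), to 9786 ± 466 normalized counts in obe2/Df and 9062 ± 841 in obe1/obe2, against 16569 ± 311 in OreR (SD, n = 3 each). The difference between the obe groups was not called (0.11 ± 0.079, adjusted p = 0.263). The authors' deposited tables give Vha44 a fold of 0.591 (adjusted p = 0.409) in obe2/Df and 0.547 (adjusted p = 0.555) in obe1/obe2. Its annotated exons overlap those of Hmgs on the other strand over 148 bases, 3.68% of its exon length, and the library kit keeps no strand. Hmgs averaged 6601 ± 686 normalized counts in obe2/Df, 4096 ± 1382 in obe1/obe2 and 3525 ± 70.5 in OreR. The part of this exon overlap in the Vha44 values was not tested.

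Vha26 encodes subunit E of the outer stalk. It stood at 35479, 36851 and 33935 normalized counts in obe2/Df, 38655, 42847 and 44378 in obe1/obe2 and 61356, 54769 and 56279 in OreR. The 3 groups did not overlap, with obe2/Df lowest and OreR highest. Vha26 fell in obe2/Df (-0.70 ± 0.075, adjusted p = 0.000211) and in obe1/obe2 (-0.45 ± 0.075, adjusted p = 0.00318). Between the obe groups it was lower in obe2/Df (-0.24 ± 0.075, adjusted p = 0.0285). That last call was lost without obe1/obe2 replicate 2 (adjusted p = 0.0808) or without any of 3 other libraries, and quantile normalization brought the value to -0.084, adjusted p = 0.351. For Vha26 between the obe groups the adjusted p ranged between 0.013 and 0.351 over 17 alternatives run on the matrix.

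Vha13 encodes subunit G, the partner of E in the stalk. It stood at 16029, 15775 and 17391 normalized counts in obe2/Df, 13247, 10942 and 11332 in obe1/obe2 and 12806, 11183 and 11224 in OreR. The obe2/Df libraries lay above all others, while obe1/obe2 and OreR overlapped. Vha13 rose in obe2/Df against OreR (0.48 ± 0.092, adjusted p = 0.00257) and against obe1/obe2 (0.47 ± 0.092, adjusted p = 0.00448), with 0.01 ± 0.092 in obe1/obe2 (adjusted p = 0.949). The ratio of Vha26 to Vha13, each per kilobase, was 0.713, 0.753 and 0.629 in the obe2/Df libraries, 0.94, 1.26 and 1.26 in obe1/obe2 and 1.54, 1.58 and 1.62 in OreR. Such a ratio within a library does not depend on the size factors, and its 3 groups did not overlap.

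Of the head subunits, the main catalytic gene Vha68-2 stood at 49002, 39777 and 41549 normalized counts in obe2/Df, 39679, 26996 and 34037 in obe1/obe2 and 27267, 32652 and 31792 in OreR. It rose in obe2/Df against OreR (0.51 ± 0.14, adjusted p = 0.0152), with obe2/Df replicate 1 highest, and was not called in obe1/obe2 (0.12 ± 0.14, adjusted p = 0.571). The rise missed the threshold without obe2/Df replicate 1 (0.42, adjusted p = 0.0509) and without OreR replicate 1 (0.43, adjusted p = 0.0562). For Vha68-2 in obe2/Df against OreR the adjusted p ranged between 0.00178 and 0.0562 over 17 alternatives run on the matrix. Its paralogue Vha68-1 averaged 271 ± 23.9 normalized counts in obe2/Df, 274 ± 35 in obe1/obe2 and 354 ± 62.6 in OreR and was called in 0 of the 3 comparisons. Vha68-2 held 99.4 ± 0.0647% of the summed subunit A level per kilobase in obe2/Df, 99.1 ± 0.233% in obe1/obe2 and 98.8 ± 0.324% in OreR. Reads shared by similar paralogues may be split or dropped, and how the authors treated them is not given in the sources used here.

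Vha55, the single gene of subunit B, averaged 36853 ± 2619 normalized counts in obe2/Df, 29854 ± 4076 in obe1/obe2 and 34958 ± 2080.2 in OreR. It was not called in obe2/Df (0.075 ± 0.11) or obe1/obe2 (-0.24 ± 0.11) against OreR, and the obe2/Df level exceeded that of obe1/obe2 (0.31 ± 0.11, adjusted p = 0.0414). That call was lost without any of 6 libraries, among them obe2/Df replicate 1 (0.26, adjusted p = 0.125) and obe1/obe2 replicate 2 (0.20, adjusted p = 0.115). For Vha55 between the obe groups the adjusted p ranged between 0.00568 and 0.125 over 17 alternatives run on the matrix.

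The rotor shaft gene Vha36-1, for subunit D, stood at 9218, 8938 and 9618 normalized counts in obe2/Df, 8156, 6574 and 8039 in obe1/obe2 and 10421, 10045 and 9904 in OreR. Both obe groups lay below OreR without overlap. It fell in obe1/obe2 (-0.42 ± 0.089, adjusted p = 0.01), was not called in obe2/Df (-0.13 ± 0.089, adjusted p = 0.232), and the obe2/Df level exceeded that of obe1/obe2 (0.29 ± 0.089, adjusted p = 0.027). Vha14-1, for subunit F of the shaft, averaged 6882 ± 335 normalized counts in obe2/Df, 7264 ± 466 in obe1/obe2 and 8022 ± 607 in OreR. Its fall in obe2/Df (-0.22 ± 0.083, adjusted p = 0.0456) was the smallest among the 9 members called there and was lost without OreR replicate 1 (-0.17, adjusted p = 0.149), as it was without any of 5 other libraries. For Vha14-1 in obe2/Df against OreR the adjusted p ranged between 0.0287 and 0.159 over 17 alternatives run on the matrix. VhaSFD, for the regulatory subunit H, averaged 18136 ± 1114 normalized counts in obe2/Df, 15609.6 ± 512 in obe1/obe2 and 17273 ± 172 in OreR. It was called between the obe groups (0.22 ± 0.062, adjusted p = 0.0223) and in neither comparison with OreR. Without obe2/Df replicate 1 the differences of Vha36-1 and VhaSFD between the obe groups no longer passed (Vha36-1 0.30, adjusted p = 0.068; VhaSFD 0.16, adjusted p = 0.104), nor did they without obe1/obe2 replicate 2 (Vha36-1 0.19, adjusted p = 0.052; VhaSFD 0.19, adjusted p = 0.0629). For Vha36-1 between the obe groups the adjusted p ranged between 0.0161 and 0.0894 over 17 alternatives run on the matrix. For VhaSFD between the obe groups the adjusted p ranged between 0.00621 and 0.104 over 17 alternatives run on the matrix. Leaving out either library left 1 member higher and 1 lower between the obe groups, Vha13 and Vha100-1. Without obe2/Df replicate 3 there were 2 higher and 1 lower, and without obe1/obe2 replicate 3 there were 3 higher and 1 lower.

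In the V0 part, the subunit a genes moved apart. Vha100-1, known in flies for its role in neurons, stood at 11502, 11688 and 11069 normalized counts in obe2/Df, 14205, 16020.0 and 15633 in obe1/obe2 and 18454, 20089 and 18549 in OreR. The 3 groups did not overlap, with obe2/Df lowest. Vha100-1 fell in obe2/Df (-0.74 ± 0.068, adjusted p = 0.000113) and also in obe1/obe2 (-0.32 ± 0.068, adjusted p = 0.0109), with obe2/Df also below obe1/obe2 (-0.42 ± 0.068, adjusted p = 0.00271). Vha100-2, a second subunit a gene on the same chromosome arm, stood at 21292, 16478 and 18445 normalized counts in obe2/Df, 16640.5, 9836 and 11370.2 in obe1/obe2 and 7481, 9136 and 8350.3 in OreR. Both obe groups lay above OreR without overlap, and obe1/obe2 replicate 1 lay among the obe2/Df libraries. Vha100-2 rose in obe2/Df (1.17 ± 0.18, adjusted p = 0.00118), to 18738 ± 2421 normalized counts against 8322 ± 828 in OreR. In obe1/obe2 it missed the threshold (0.57 ± 0.18, adjusted p = 0.0564), and passed it without obe1/obe2 replicate 2 (0.73, adjusted p = 0.0227) and after quantile normalization (0.63, adjusted p = 0.0213). Set against obe1/obe2, obe2/Df was higher (0.60 ± 0.18, adjusted p = 0.0281), a call lost without obe1/obe2 replicate 2 (0.44, adjusted p = 0.0903) or any of 3 other libraries. For Vha100-2 in obe1/obe2 against OreR the adjusted p ranged between 0.0213 and 0.166 over 17 alternatives run on the matrix. For Vha100-2 between the obe groups the adjusted p ranged between 0.00139 and 0.0903 over 17 alternatives run on the matrix.

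Per kilobase, the ratio of Vha100-2 to Vha100-1 was 1.89, 1.44 and 1.7 in the obe2/Df libraries, 1.2, 0.627 and 0.742 in obe1/obe2 and 0.414, 0.464 and 0.46 in OreR. Vha100-1 was thus the more abundant subunit a RNA in all OreR libraries and Vha100-2 in all obe2/Df libraries, while obe1/obe2 replicate 1 had more Vha100-2 and the other obe1/obe2 libraries more Vha100-1. Vha100-2 held 62.5 ± 3.22% of the summed level of the 5 subunit a genes in obe2/Df, 45.2 ± 8.27% in obe1/obe2 and 30.8 ± 1.35% in OreR. The same libraries differed in stage markers: the early zygotic sum was 152607 for obe1/obe2 replicate 1, 320945 for its replicate 2 and 158312 for its replicate 3. The part of stage in the ratio was not tested.

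**Figure D3:**
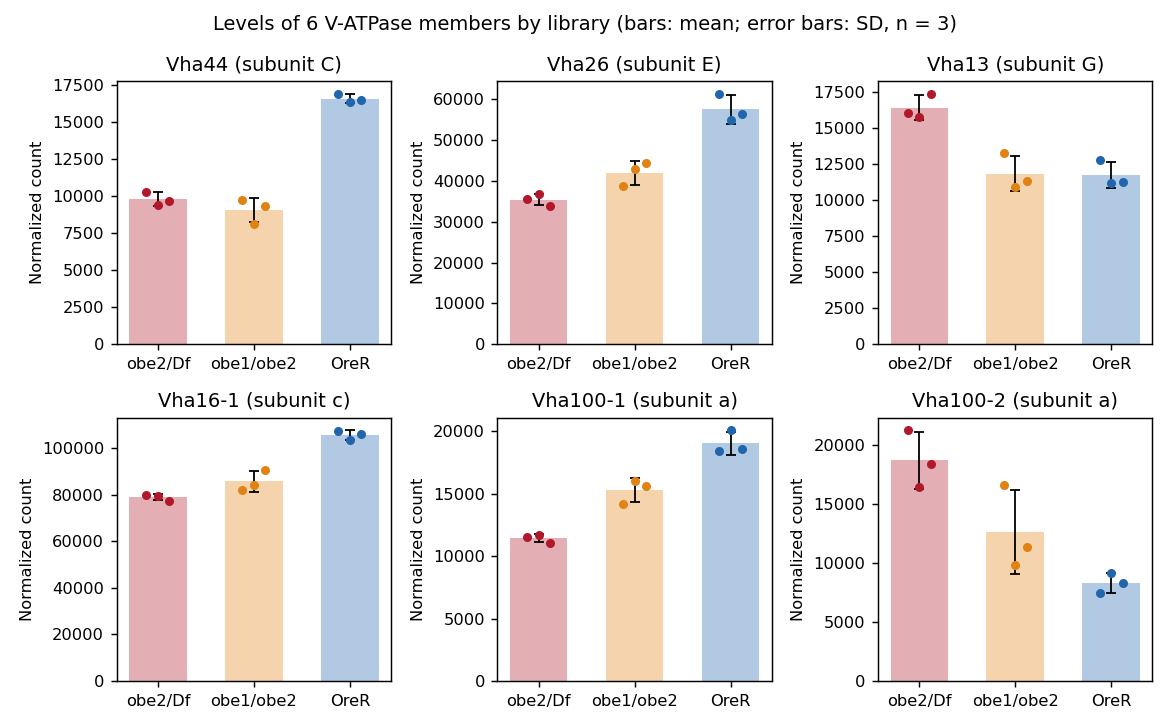
Normalized counts of Vha44, Vha26, Vha13, Vha16-1, Vha100-1 and Vha100-2 in obe2/Df, obe1/obe2 and OreR; bars are means, error bars SD and points the 3 libraries. Vha44 and Vha16-1 are lower in both obe groups, Vha13 is higher in obe2/Df, and Vha100-1 and Vha100-2 run in opposite directions.

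The ring gene Vha16-1 stood at 80117, 79316 and 77433 normalized counts in obe2/Df, 82238, 84388 and 90727 in obe1/obe2 and 107562, 103411 and 106029 in OreR. Both obe groups lay below OreR without overlap, and the obe2/Df libraries lay below the obe1/obe2 libraries. It fell in obe2/Df (-0.42 ± 0.061, adjusted p = 0.000812) and also in obe1/obe2 (-0.30 ± 0.061, adjusted p = 0.0084), while the difference between the obe groups was not called (-0.12 ± 0.061, adjusted p = 0.144). Quantile normalization brought the fall in obe2/Df to -0.17, adjusted p = 0.027. For Vha16-1 in obe2/Df against OreR the adjusted p ranged between 0.000739 and 0.027 over 17 alternatives run on the matrix. The other ring gene, VhaPPA1-1, averaged 15218 ± 519.9 normalized counts in obe2/Df, 14200.4 ± 1819 in obe1/obe2 and 15219 ± 853 in OreR and was called in 0 of 3 comparisons. Of the 12 members on arm 3R, where obe also lies, VhaPPA1-1 is nearest to obe, with 81 protein-coding genes between them in the current annotation, and its log2 fold change in obe2/Df was 0.00088 ± 0.10. VhaAC39-1 (subunit d) was called in 0 of 3 comparisons, with -0.048 ± 0.068 in obe2/Df and -0.087 ± 0.068 in obe1/obe2. VhaAC39-1 averaged 21646 ± 738 normalized counts in obe2/Df, 21079.6 ± 1162 in obe1/obe2 and 22396 ± 1275 in OreR.

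The subunit e genes ranged widely. VhaM9.7-b, the highest of them, averaged 8067 ± 106 normalized counts in obe2/Df, 8123 ± 252 in obe1/obe2 and 7499.8 ± 249 in OreR and was called in 0 comparisons (0.11 ± 0.06 in obe2/Df, 0.12 ± 0.06 in obe1/obe2). VhaM9.7-c averaged 3873 ± 494 normalized counts in obe2/Df, 4785 ± 522 in obe1/obe2 and 4235 ± 563 in OreR. It was not called either (-0.13 ± 0.14 in obe2/Df, 0.18 ± 0.14 in obe1/obe2). VhaM9.7-a was low, at 1.3, 12.8 and 8.47 normalized counts in obe2/Df, 11.5, 36.6 and 12.6 in obe1/obe2 and 54.1, 38.9 and 26.3 in OreR, which came from 2, 10 and 10 reads in obe2/Df, 12, 40 and 10 in obe1/obe2 and 46, 46 and 22 in OreR. It fell in obe2/Df (-2.54 ± 0.73, adjusted p = 0.0152) and did not pass in obe1/obe2 (-1.08 ± 0.73, adjusted p = 0.314). Without OreR replicate 1 the difference no longer passed (-2.30, adjusted p = 0.0527), and without obe2/Df replicate 1, the library with 2 reads, it was still called (-1.77, adjusted p = 0.035). For VhaM9.7-a in obe2/Df against OreR the adjusted p ranged between 0.00531 and 0.0527 over 16 alternatives run on the matrix. The authors' deposited table gives it a fold of 0.19 (adjusted p = 0.00705) in obe2/Df.

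The accessory genes VhaAC45 and VhaM8.9 (ATP6AP2, known as a prorenin receptor in mammals) were called in 0 comparisons. VhaAC45 gave -0.087 ± 0.072 in obe2/Df and -0.18 ± 0.072 in obe1/obe2, and VhaM8.9 gave 0.12 ± 0.069 in obe2/Df and 0.13 ± 0.069 in obe1/obe2. VhaAC45 averaged 12985 ± 884 normalized counts in obe2/Df, 12126 ± 484 in obe1/obe2 and 13782 ± 669 in OreR. VhaM8.9 averaged 12508 ± 741 normalized counts in obe2/Df, 12583 ± 609 in obe1/obe2 and 11474 ± 429 in OreR. Summed over the 20 members, the level per kilobase was 175896, 167188 and 170040.0 in the obe2/Df libraries, 164408, 152881 and 167164 in obe1/obe2 and 180976, 177376 and 181986 in OreR, so both obe groups lay below OreR without overlap. The V1 sum was 86558 ± 2662 in obe2/Df, 75809 ± 4835 in obe1/obe2 and 87759 ± 1691 in OreR (SD, n = 3 each), where obe1/obe2 lay below OreR without overlap and obe2/Df overlapped OreR. The V0 sum was 69512 ± 1225 in obe2/Df, 71080.5 ± 3144 in obe1/obe2 and 77691 ± 1719.6 in OreR, with both obe groups below OreR without overlap. Without Vha16-1 the V0 sum was 43852 ± 896 in obe2/Df, 43201 ± 2047 in obe1/obe2 and 43350 ± 1672.5 in OreR. In this reduced sum both obe groups overlapped OreR. All of these sums depend on the size factors, and no alternative normalization was run on them. In all, 4 members were called in both comparisons with OreR, all lower (Vha44, Vha26, Vha100-1 and Vha16-1), and 8 members in 0 of the 3 comparisons. Against OreR, 60.5% of all tested genes were called in obe2/Df and 22.6% in obe1/obe2. The shares of all genes called in both comparisons or in none were not worked out, so these 2 counts are no result about the family. The groups did not overlap in 14 of 20 members in obe2/Df against OreR, beside 70.5% of all genes, and in 10 of 20 in obe1/obe2 against OreR, beside 37.3%. Between obe2/Df and obe1/obe2 they did not overlap in 8 of 20 members, beside 59.8%.

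**Figure D4:**
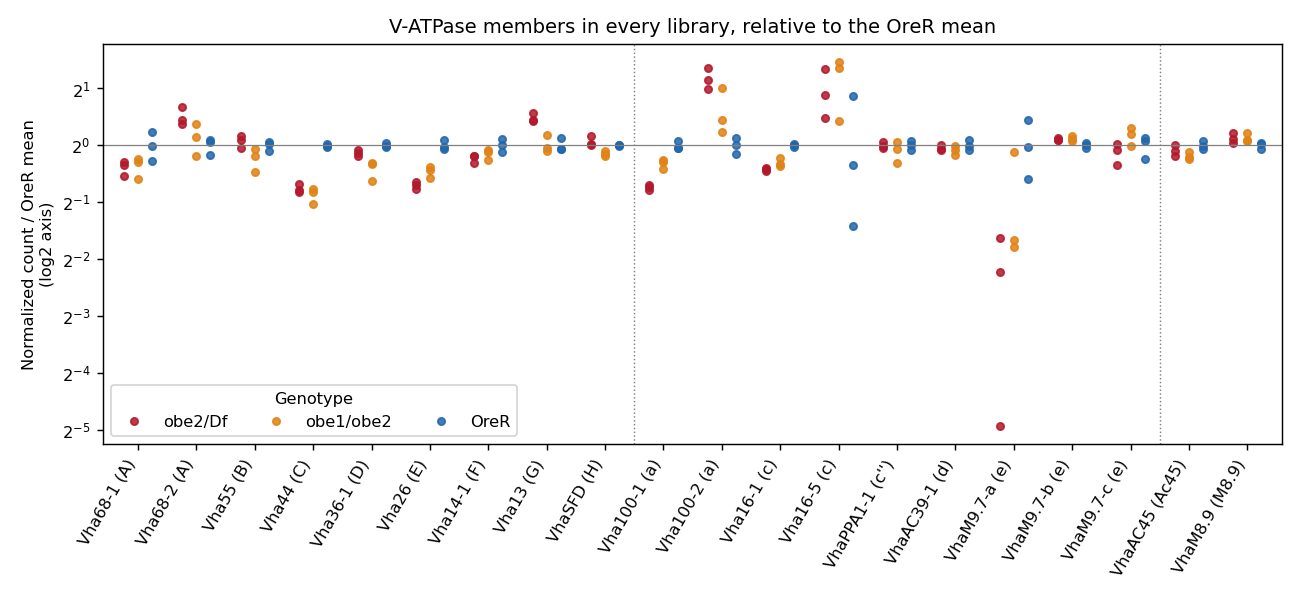
Normalized count of each well-measured V-ATPase gene in every library divided by its OreR mean (log2 axis), with subunit letters in brackets; dotted lines part V1, V0 and accessory genes. Vha68-1, Vha44, Vha36-1, Vha26, Vha14-1, Vha100-1, Vha16-1 and VhaM9.7-a lie below 1 in all 6 obe libraries, and Vha100-2, Vha16-5, VhaM9.7-b and VhaM8.9 lie above 1 in all 6. Not all of these were called, and the low gene Vha16-5 overlapped between each obe group and OreR.

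The 13 members under a mean of 10 were extra copies of subunits that also had a well-measured gene. The nearest to the threshold were Vha16-5 just above it, at a mean of 11.0 normalized counts, and VhaPPA1-2 just below it, at 9.28. Vha16-5, a ring copy, averaged 12.4 ± 3.67 in obe2/Df, 14.2 ± 4.91 in obe1/obe2 and 6.41 ± 4.83 in OreR and was not called (1.03 ± 0.56, adjusted p = 0.14 in obe2/Df). Vha100-5, Vha14-2 and Vha16-4 had 0 reads in all 9 libraries. A count of 0 allows up to 3 reads, or 1.95 to 3.85 normalized counts by library, for counting error only. Vha100-3, Vha16-2 and Vha16-3 had reads in 1 library each, at most 2. Vha100-4, Vha68-3 and VhaM9.7-d reached at most 4 reads in a library. VhaPPA1-2 reached 18 reads, VhaAC39-2 13 and Vha36-2 16. Vha36-2, a further copy of the shaft subunit D gene, had 7, 2 and 16 reads in obe2/Df, 0, 1 and 0 in obe1/obe2 and 2, 8 and 4 in OreR, and with no filter on low values it passed between the obe groups (adjusted p = 0.0182) and in neither comparison with OreR.

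Vha36-3, an X-linked copy of the shaft subunit D gene, differed between groups among these low copies. It had 34, 14 and 16 reads in obe2/Df, 0, 0 and 4 in obe1/obe2 and 0 in each OreR library. Its mean in obe2/Df was 17.9 ± 4.3 normalized counts, at least 5.56-fold higher than the mean floor of 3 reads per OreR library, 3.22 normalized counts. In the fit with no filter on low values obe2/Df exceeded OreR (adjusted p = 0.00148) and obe1/obe2 (adjusted p = 0.00647). Even so, Vha36-1 held 99.78 ± 0.027% of the subunit D level per kilobase in obe2/Df, 99.98 ± 0.027% in obe1/obe2 and 99.96 ± 0.018% in OreR. The summed level of 12 testis genes was 43.7 to 132 normalized counts in obe2/Df, 32.8 to 60.4 in obe1/obe2 and 5.07 to 14.1 in OreR. Of the 12, 2 reached a mean of 10. Among these 2, 1 was called higher in obe2/Df against OreR and 1 against obe1/obe2. The shares of all tested genes called higher were 31% and 25.2%. Mst87F, Mst84Da and Mst84Db, which mark late male germ cells, were at 0 in all libraries. The other listed testis genes had reads in at least 1 library. A further list of 11 eggshell and yolk genes summed to 42.4 to 60.5 normalized counts in obe2/Df, 22.7 to 46.7 in obe1/obe2 and 21.5 to 31.8 in OreR, with 1 at a mean of 10 and Cp38 and Vm26Ab at 0. The 10 hemocyte genes, 6 of them at a mean of 10 and nimC1 at 0, summed to 17420.2 to 21888 in obe2/Df, 11223 to 15476 in obe1/obe2 and 15835 to 16405 in OreR. The part of such cells in the V-ATPase values was not tested. CG31030, now named VhaAC45RP, is listed under its older symbol and so falls outside the symbol rule. It had at most 6 reads in any library.

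Genes that assemble or regulate the pump were taken as a list of 5. Of these, 3 were higher and 1 lower in obe2/Df, with a median of 0.52, and 1 was higher and 0 lower in obe1/obe2, with a median of -0.21. Of all tested genes, 31% were higher and 29.5% lower in obe2/Df, and 11% were higher and 11.7% lower in obe1/obe2. The genes named below were those called with the largest absolute changes, and the 1 called lower in obe2/Df is not among them. Mitf encodes the fly counterpart of the TFEB family of transcription factors, which is known to act on V-ATPase genes. Mitf averaged 33472 ± 1522 normalized counts in obe2/Df and 23464 ± 2191 in OreR (log2 fold change 0.52 ± 0.10, adjusted p = 0.00268). Mitf averaged 30647 ± 3449 normalized counts in obe1/obe2 and 23464 ± 2191 in OreR (log2 fold change 0.38 ± 0.10, adjusted p = 0.0239). Rbcn-3B encodes a part of the rabconnectin complex, which promotes assembly of the pump. Rbcn-3B averaged 5282 ± 737 normalized counts in obe2/Df and 2212 ± 266 in OreR (log2 fold change 1.25 ± 0.25, adjusted p = 0.00323). mtd (mustard), a TLDc-domain gene, averaged 36170.5 ± 3585 normalized counts in obe2/Df and 24424 ± 5553 in OreR (log2 fold change 0.59 ± 0.21, adjusted p = 0.0362).

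Of 27 tested lysosome and endosome genes, 3 were higher and 11 lower in obe2/Df, with a median of -0.20, and 2 higher and 8 lower in obe1/obe2, with a median of -0.17. Over all tested genes, 31% were higher and 29.5% lower in obe2/Df, and 11% higher and 11.7% lower in obe1/obe2. LManII, a lysosomal alpha-mannosidase gene, averaged 2075 ± 222 normalized counts in obe2/Df and 11509 ± 194 in OreR (log2 fold change -2.48 ± 0.10, adjusted p = 1.5e-06). The cathepsin B gene fell in both: CtsB1 averaged 8149 ± 484 normalized counts in obe2/Df and 14404 ± 1086 in OreR (log2 fold change -0.82 ± 0.10, adjusted p = 0.000342). CtsB1 averaged 7887 ± 925 normalized counts in obe1/obe2 and 14404 ± 1086 in OreR (log2 fold change -0.87 ± 0.10, adjusted p = 0.000401). Gba1a, a glucocerebrosidase gene, averaged 87.8 ± 3.49 normalized counts in obe2/Df and 25.3 ± 12.7 in OreR (log2 fold change 1.89 ± 0.42, adjusted p = 0.00488). Gba1a averaged 74.2 ± 17.3 normalized counts in obe1/obe2 and 25.3 ± 12.7 in OreR (log2 fold change 1.63 ± 0.42, adjusted p = 0.0232). Vps11, a gene of the vesicle tethering complexes, averaged 46243 ± 4005 normalized counts in obe1/obe2 and 27562 ± 3854 in OreR (log2 fold change 0.75 ± 0.13, adjusted p = 0.00338).

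Of 17 tested genes of the Rag, Lamtor and TORC1 group, which senses nutrients at the lysosome beside the V-ATPase, 5 were higher and 4 lower in obe2/Df, with a median of 0.16. In obe1/obe2, 0 were higher and 0 lower by limma and by edgeR, with a median of 0.057, and 3 were higher and 1 lower at an unadjusted p under 0.05. Over all tested genes, 60.5% were called in obe2/Df, 31% higher and 29.5% lower, and 22.6% in obe1/obe2. RagC-D, a Rag GTPase gene, averaged 3453 ± 444 normalized counts in obe2/Df and 1384 ± 159 in OreR (log2 fold change 1.32 ± 0.26, adjusted p = 0.00279). S6k, a kinase gene downstream of TORC1, averaged 13825 ± 1326 normalized counts in obe2/Df and 9812 ± 1080.3 in OreR (log2 fold change 0.50 ± 0.12, adjusted p = 0.00777). Iml1, a gene of the GATOR1 complex that restrains TORC1, averaged 3098 ± 100.2 normalized counts in obe2/Df and 2252 ± 296 in OreR (log2 fold change 0.47 ± 0.12, adjusted p = 0.0109).

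The mitochondrial F-type ATP synthase is the related rotary enzyme that makes ATP. Of its 13 tested genes 0 were higher and 8 lower in obe2/Df, with a median of -0.38, and 0 higher and 5 lower in obe1/obe2, with a median of -0.28. By edgeR and at an unadjusted p under 0.05, 0 were higher as well in both comparisons. Of all tested genes, 31% were higher and 29.5% lower in obe2/Df, and 11% were higher and 11.7% lower in obe1/obe2. ATPsynbeta, the catalytic subunit gene, averaged 59685 ± 4278 normalized counts in obe2/Df and 97135 ± 5239 in OreR (log2 fold change -0.70 ± 0.15, adjusted p = 0.00376). ATPsynbeta averaged 45462 ± 9597 normalized counts in obe1/obe2 and 97135 ± 5239 in OreR (log2 fold change -1.12 ± 0.15, adjusted p = 0.000895). ATPsynB, a stator gene, averaged 11855 ± 397 normalized counts in obe2/Df and 18479 ± 1501 in OreR (log2 fold change -0.64 ± 0.088, adjusted p = 0.000648). ATPsynB averaged 13018 ± 1243 normalized counts in obe1/obe2 and 18479 ± 1501 in OreR (log2 fold change -0.51 ± 0.088, adjusted p = 0.00412). ATPsynD averaged 10626 ± 283 normalized counts in obe2/Df and 15246 ± 986 in OreR (log2 fold change -0.52 ± 0.077, adjusted p = 0.000895). blw, the alpha subunit gene, averaged 54825 ± 8804 normalized counts in obe1/obe2 and 74231 ± 4607 in OreR (log2 fold change -0.45 ± 0.13, adjusted p = 0.0326).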

How the data were processed

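Total RNA from 9 libraries was sequenced on an Illumina HiSeq2500 from TruSeq v2 libraries, per the labels' protocols. STAR, Cuffdiff and Cufflinks 2.1.1, with the dm3 build, appear in the submitters' processing notes without roles. The deposited matrix holds a signal per gene, normalized featureCounts read counts per the file's name, and its values are read counts divided by 1 factor per library. For how that factor was made, the annotation, the DESeq version and multi-mapped reads, details were not given in the sources used here. Fold (ratio) values and adjusted p-values stand in the authors' deposited comparison tables, which name DESeq.

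In every library 100% of the signal values were whole multiples, within 0.001 of a read, of what 1 read is worth, which recovered the reads, 61007517 to 123121486 per library. The main test was limma 3.58.1 (R 4.3.3) on log2(signal + 1), with a mean-variance trend, for the 8346 genes whose mean reached 10 and all 9 libraries in 1 fit with 6 residual degrees of freedom; p-values were Benjamini-Hochberg adjusted over all 8346 genes in each of 3 comparisons. The code was tested on simulated data. Alternatives were edgeR 4.0.16 quasi-likelihood on recovered reads, TMM factors, quantile normalization, pseudocounts of 0.5 and 5, a minimum mean of 50, no filter, the replicate number as a block, each library left out, and the authors' tables. Figures used Python 3.11.15 and matplotlib 3.10.9.

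All genes whose symbol starts with Vha are accounted for. From each of 4 pathway lists up to 3 called genes with the largest absolute log2 fold change in each comparison with OreR were named; 5 further lists hold stage and cell type markers. Of the 135 list symbols 1 was not matched. The members and lists were chosen with earlier results of these data known. Exon lengths, chromosome arms, exon overlaps and gene order came from BDGP6 and RefSeq annotation, a later build than dm3, so no coordinates are given. Intervals and floors cover counting error only.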

Additional observations from a re-analysis of the deposited data

Results flagged for a closer look

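The difference between the obe groups, both set against the same OreR libraries, passed limma's adjusted threshold for 7 of the 20 members. The log2 difference of obe2/Df against obe1/obe2 was 0.60 for Vha100-2, 0.47 for Vha13, 0.31 for Vha55, 0.29 for Vha36-1 and 0.22 for VhaSFD. It was -0.42 for Vha100-1 and -0.24 for Vha26. Among all tested genes 44.7% passed the same test, so the members' share is no result about the family. The calls of Vha13 and Vha100-1 held in every alternative run, and each of the other 5 was lost in at least 1.

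Vha36-3 lies outside the main test because its mean over the 9 libraries is under 10. It averaged 17.9 normalized counts in obe2/Df, above the floor of 3 reads in each OreR library, where it had 0 reads.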

How the results depend on the processing

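Of the single-member values recomputed under the alternatives, 982 kept their direction and their side of the threshold, 46 lost the call, 7 gained one, and 19 uncalled values changed sign; 0 called values turned direction. Members called higher in obe1/obe2 against OreR numbered 1 under quantile normalization (Vha100-2) in place of 0. The authors' deposited tables called 0 members lower in obe1/obe2 in place of 5, and 0 higher and 1 lower in obe2/Df in place of 3 and 6. With single libraries left out, the counts ranged from 0 to 1 higher and from 5 to 5 lower in obe1/obe2 against OreR, from 2 to 3 higher and from 4 to 6 lower in obe2/Df against OreR, and from 1 to 6 higher and from 1 to 2 lower in obe2/Df against obe1/obe2. The cause of these shifts was not tested. In the fit with the replicate block, 1 member in place of 2 was lower in obe2/Df than in obe1/obe2. The member that no longer passed there was Vha26 (limma with the block, adjusted p = 0.0665). Deviations of same-numbered libraries correlated between -0.197 and 0.521 over 9 pairs, and those of different numbers between -0.493 and 0.376 over 18 pairs. Between the obe groups the same-numbered pairs gave 0.521, 0.380 and 0.005, and different numbers gave -0.493 to 0.376. The main fit did not pair libraries by number, and an effect of number shared by the obe groups alone was not tested. Quantile normalization put 59.3% of all called genes higher in obe1/obe2 against OreR, where the deposited scaling put 48.5%, and 43.3% higher in obe2/Df against obe1/obe2, where it put 56.3%. With a minimum mean of 50, Vha16-5 and VhaM9.7-a were not tested. At the depth of these libraries, small changes in the 13 low members, at most 18 reads in a library except Vha36-3, were not detectable.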
